A study of Mus musculus with 6 samples.

Results

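The genes described here encode the hormones of the anterior pituitary, together with 2 genes that govern growth hormone cells. The members were 10 gene symbols chosen by name (*Prl*, *Gh*, *Pomc*, *Pomc1*, *Tshb*, *Lhb*, *Fshb*, *Cga*, *Pou1f1* and *Ghrhr*), with earlier results of these arrays known. Of the 10 symbols, 8 matched 1 probe each among the 25697 probes and 18138 symbols of the array, and *Pomc1* and *Pou1f1* matched none. *Pomc1* is an older name of *Pomc*. Total RNA came from cochlear tissue of C57BL/6 mice (C57BL/6J in the study's methods) aged 12 months, 3 wild type (WT) and 3 *Cmah*-null, the latter carrying a knockout of the hydroxylase that makes the sialic acid Neu5Gc. Each sample was hybridized to 1 Illumina MouseRef-8 v2 array. The study's methods give n = 3 for the mice of each group, while nothing in the labels says whether the 3 samples were single mice or pools. Each array is named below by genotype and replicate number. Values are log2 signals after the authors' quantile normalization unless a raw bead signal is named, and detection means a detection p below 0.05 on that array.

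The pituitary lies below the brain on the skull base, close to the temporal bones that house the cochleae. Its anterior lobe holds cell types that each make a hormone: lactotrophs make prolactin (*Prl*), somatotrophs growth hormone (*Gh*), corticotrophs the precursor of ACTH (*Pomc*), thyrotrophs the beta chain of thyrotropin (*Tshb*) and gonadotrophs the beta chains of LH and FSH (*Lhb*, *Fshb*). The glycoprotein hormones share a common alpha chain (*Cga*). The factor Pou1f1, also named Pit-1, drives the lactotroph, somatotroph and thyrotroph lines, and the receptor Ghrhr takes the signal of hypothalamic growth hormone releasing hormone. *Prl* and *Gh* are among the most abundant mRNAs of the gland, and *Prl* is known to be higher in the pituitary of female than of male mice.

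The probes of the 5 members that were detected on at least 1 array are shown first, because each gene was read by a single probe and its values rest on that sequence. Each is 50 bases long, written 5′ to 3′ in the sense of the transcript, and in lower case throughout, since no part of it was singled out.
Prl: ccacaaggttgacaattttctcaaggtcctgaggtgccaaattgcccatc
Gh: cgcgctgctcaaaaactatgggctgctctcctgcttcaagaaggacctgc
Tshb: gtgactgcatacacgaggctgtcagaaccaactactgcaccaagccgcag
Cga: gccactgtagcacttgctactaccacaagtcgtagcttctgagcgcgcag
Pomc: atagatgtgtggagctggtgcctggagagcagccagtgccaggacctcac

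The *Prl* probe (ILMN_2685995) lies on the plus strand of chromosome 13 (band 13qA3.1) and the *Gh* probe (ILMN_2725322) on the minus strand of chromosome 11 (band 11qE1). The array annotation places them at positions 27156856 to 27156905 and 106161747 to 106161796 of a genome build that the files do not name. They start at bases 672 and 595 of their transcripts. The *Tshb*, *Cga* and *Pomc* probes lie on chromosomes 3, 4 and 12.

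*Prl* was read at 2 very different levels among the 6 arrays. Its log2 signal was 8.04, 8.13 and 14.22 in WT samples 1, 2 and 3. In *Cmah*-null samples 1, 2 and 3 it was 13.66, 13.62 and 12.35. WT arrays 1 and 2 were low, and WT array 3 was above every *Cmah*-null array, so the groups overlapped. The raw bead signal was 273, 265 and 13231 in WT and 18432, 16164 and 4897 in *Cmah*-null samples, a 69.7-fold span between the lowest and the highest array. The standard error over the beads was between 2.24% and 3.85% of the signal on each array, with 25 to 49 beads behind each value. *Prl* was detected on all 6 arrays, also on the low ones, with a detection p of 0.00125 on WT arrays 1 and 2.

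*Gh* separated the same arrays, with a smaller span. Its log2 signal was 9.38, 9.29 and 12.99 in WT samples 1, 2 and 3, against 11.95, 11.87 and 13.06 in *Cmah*-null samples 1, 2 and 3. WT arrays 1 and 2 were again the lowest, and WT array 3 again lay within or above the *Cmah*-null values. The raw signal was 717, 530 and 5623 in WT and 5705, 4884 and 8047 in *Cmah*-null samples, a span of 15.2-fold. The 2 hormones did not rank the other 4 arrays alike. Above its own lowest array, *Prl* stood at 6.19 on WT array 3 and at 4.31 on *Cmah*-null array 3, while *Gh* stood at 3.70 and 3.77 there. *Cmah*-null array 3 thus had the lowest *Prl* of these 4 arrays and the highest *Gh*. Without the quantile step, with arrays scaled to the same median, the highest *Prl* was that of *Cmah*-null array 1 (14.08 against 13.72 on WT array 3), so the order at the top depends on the scaling. In bulk tissue, more cells of a type and more RNA per cell cannot be told apart.

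**Figure D1:**
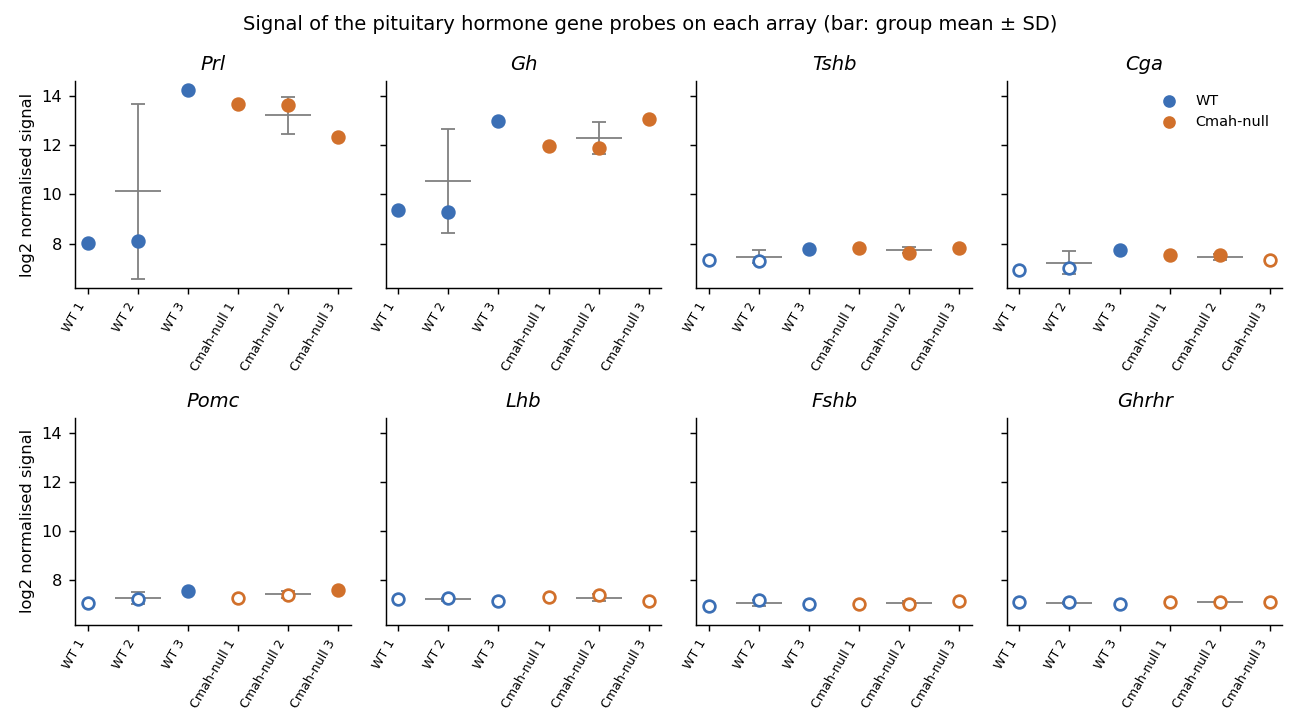
Log2 normalised signal (y axis) of the 8 hormone gene probes on each array (x axis). Filled points mark arrays where the probe was detected, open points those where it was not, and grey bars give the group mean and SD. *Prl* and *Gh* are low on WT arrays 1 and 2 and high on the other 4, while the other 6 probes stay between 6.92 and 7.83.

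*Prl* and *Gh* stood apart from the rest of the array in how far they separated these samples. Of the 16898 probes detected on at least 1 array, the median span from the lowest to the highest array was 0.71 on the log2 scale, and 3.92% of them spanned 2 or more. The span of *Prl*, 6.19, was exceeded by 1 probe, that of *Bpil1* with 6.50, and *Gh* ranked 17th with 3.77. A gap can be taken between the higher of WT arrays 1 and 2 and the lowest of the other 4 arrays, a pattern defined after the values of *Prl* were seen. This gap was 4.21 for *Prl* and 2.48 for *Gh*, and these 2 probes alone had a gap of 2 or more among the 16898. The next was *Alox12e* with 1.61. With neqc, a normalization that subtracts background, the gaps of *Prl* and *Gh* were 5.12 and 2.75, and with median scaling 4.23 and 2.73.

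The other members were dim, and 3 of them were detected on at least 1 array. *Tshb*, the thyrotropin beta chain, had a log2 signal of 7.34, 7.32 and 7.79 in WT samples. In *Cmah*-null samples it was 7.83, 7.62 and 7.83, and the probe was detected on WT array 3 and on the 3 *Cmah*-null arrays. *Cga*, the common alpha chain, was at 6.92, 7.01 and 7.75 in WT and at 7.53, 7.54 and 7.34 in *Cmah*-null samples, and was detected on WT array 3 and *Cmah*-null arrays 1 and 2. *Pomc*, the ACTH precursor, was at 7.08, 7.26 and 7.57 in WT and at 7.30, 7.39 and 7.61 in *Cmah*-null samples, and was detected on WT array 3 and *Cmah*-null array 3. None of the 3 was detected on WT array 1 or 2, and their spans were 0.51, 0.83 and 0.53. Since they passed detection only through the arrays where they were high, their lower values on WT arrays 1 and 2 are no separate support for the split of *Prl* and *Gh*. The gaps of *Tshb* and *Cga* were 0.28 and 0.32. That of *Pomc* was 0.04, and with arrays scaled to the same median it was -0.22, with WT array 2 at 7.38 above *Cmah*-null array 1 at 7.16. On the scale with background subtracted, the spans of *Tshb*, *Cga* and *Pomc* were 1.35, 1.71 and 1.17.

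**Figure D2:**
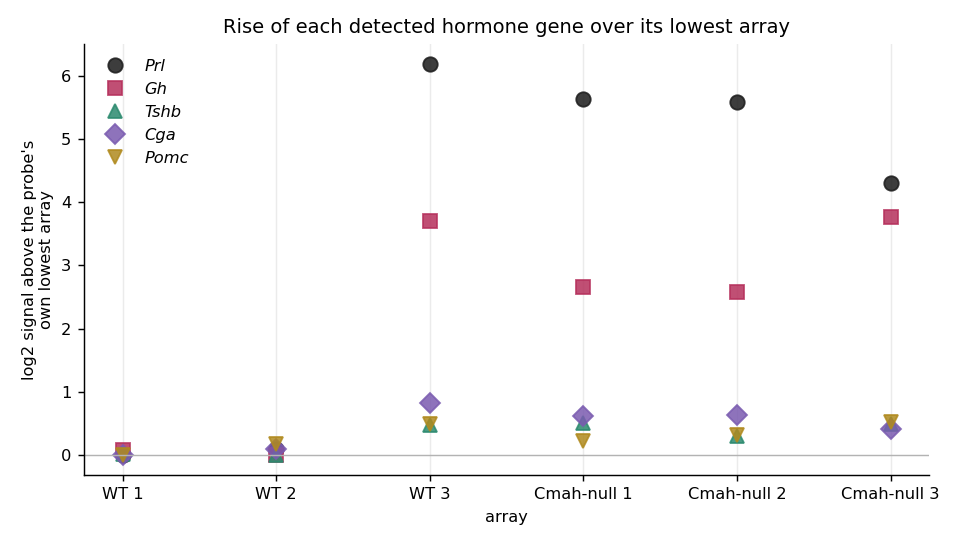
Log2 signal of the 5 detected hormone genes above each probe's own lowest array (y axis), by array (x axis). All 5 are within 0.18 of their lowest value on WT arrays 1 and 2, and on the other arrays *Prl* stands 4.31 to 6.19 and *Gh* 2.58 to 3.77 above it.

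The remaining 3 members were not detected on any array. *Lhb* lay between 7.16 and 7.41, *Fshb* between 6.98 and 7.21 and *Ghrhr* between 7.03 and 7.14, with detection p values from 0.0902 to 0.917. Signals of this size are those of the array's background, and no fold is given for these genes. They did not have WT arrays 1 and 2 as their lowest pair, with gaps of -0.12, -0.18 and -0.09. Of the hormone genes of the gland, those detected were thus *Prl*, *Gh* and, dimly, *Tshb*, *Cga* and, on 2 arrays, *Pomc*. The beta chains of the gonadotrophs were not detected. Whether cells of each hormone line were present was not tested. *Prl* belongs to a large family of placental hormones in rodents, which could in principle share probe sequence. The 24 other prolactin family probes lay between 6.77 and 7.65, 1 of them was detected on any array, and the largest span among them was 0.47.

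Between the genotypes, the mean of *Prl* was 10.13 ± 3.54 for WT (SD, n = 3), against 13.21 ± 0.75 for *Cmah*-null samples (SD, n = 3). The mean of *Gh* was 10.56 ± 2.11 for WT (SD, n = 3), against 12.29 ± 0.66 for *Cmah*-null samples (SD, n = 3). The differences, 3.08 and 1.74 on the log2 scale, were smaller than the SD within WT, and they are given as a description because the genes were chosen with these values known. The difference of *Prl* was the largest excess of the *Cmah*-null mean among the 25697 probes, ahead of 2.78 for *4931407G18Rik*, and that of *Gh* ranked 9th. At the same time, *Prl* had the second largest SD among the WT arrays of the detected probes and *Gh* the 10th, where the median SD was 0.18. The size of both differences depended on each WT array. Without WT array 3 they were 5.12 and 2.96. They were 2.03 and 1.15 without WT array 1, and 2.08 and 1.11 without WT array 2. *Tshb*, *Cga* and *Pomc* differed by 0.28, 0.25 and 0.13.

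At 1.5-fold with an unadjusted p under 0.05 in limma, a linear model for arrays, 0 of the 8 members were called, where 2.71% of all probes were. The groups overlapped in all 8 members, where 16.4% of all probes had groups that did not overlap. In limma, 0 probes of the array (0.0%) had a Benjamini-Hochberg adjusted p under 0.05, with 2199 at an unadjusted p under 0.05. *Cmah*-null arrays 1 and 2 resembled each other most of all pairs: over all probes their log2 differences had an SD of 0.126, where other pairs had at least 0.307. Their *Prl* values, 13.66 and 13.62, were likewise close. With both averaged and counted as 1 sample, the differences of *Prl* and *Gh* were 2.86 and 1.93.

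Other genes that mark or serve pituitary cells were read from lists of transcription factors, receptors and secretory granule genes. Of 21 such factors, 10 were detected on at least 1 array by their brightest probe, and 11 were not. Those below detection included *Tbx19*, the corticotroph factor, *Nr5a1*, the gonadotroph factor, *Pax7*, the melanotroph factor, and *Hesx1* and *Lhx4*, which act early in the gland. *Lhx3*, needed for most of its hormone lines, was detected on WT array 1 and *Cmah*-null array 3 with values between 7.24 and 7.65. *Pitx1*, a factor of the whole anterior lobe, was at 7.41, 7.18 and 7.42 in WT and at 7.41, 7.67 and 8.01 in *Cmah*-null samples, and was detected on *Cmah*-null arrays 2 and 3. The median log2 difference of the factors was 0.06, and none was called.

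Factors that other tissues use as well were brighter. *Otx1*, also a factor of brain and inner ear, was at 10.51, 10.95 and 11.55 in WT and at 11.47, 11.40 and 12.73 in *Cmah*-null samples (log2 difference 0.86, standard error 0.44, adjusted p 0.646 in limma). *Egr1*, an immediate early gene that gonadotrophs require, was highest on *Cmah*-null array 3 at 14.46 and between 11.97 and 13.20 elsewhere. Of the 10 detected factors, 7 were highest on *Cmah*-null array 3, the array with the highest *Gh* and the fewest detected probes (13873). *Cmah*-null array 3 stood apart from all others, with an SD of the log2 differences over all probes of 0.562 to 0.636 against each of them, where pairs without it had 0.126 to 0.439.

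Receptors and granule proteins were next. Of 11 receptors through which hypothalamic and feedback signals reach the gland, 7 were not detected, among them *Gnrhr* of gonadotrophs, *Trhr* of thyrotrophs and lactotrophs, *Ghsr*, the ghrelin receptor, and *Avpr1b* of corticotrophs. *Drd2*, the dopamine receptor that restrains lactotrophs, was detected on *Cmah*-null array 3 alone, at 7.69 against 7.23 to 7.34 elsewhere. Of 16 genes of peptide-secreting cells, 14 were detected, 12 of them on all arrays, and neurons use these genes as well. The one called was *Chgb*, a granule protein, at 11.68, 11.12 and 11.46 in WT and 12.15, 12.19 and 11.85 in *Cmah*-null samples (log2 difference 0.64, standard error 0.17, adjusted p 0.463 in limma). Its groups did not overlap, but WT array 3 lay within the WT values. *Syt4*, *Scg5* and *Scg2*, also of secretory granules, were lowest on *Cmah*-null array 3, at 9.57, 9.75 and 8.18, while their other values were 11.92 to 12.48, 11.38 to 12.23 and 9.42 to 10.63. *Avp*, a hormone of the posterior lobe, was not detected, and *Oxt*, the other, was detected on 5 arrays, all but *Cmah*-null array 2, and lay between 7.51 and 7.72 on the 6.

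Counted together, 48 of the 49 listed factors, receptors and granule genes were on the array. Of these 2.08% were called, 1 higher and 0 lower, beside 2.71% of all probes, and their median log2 difference was 0.05 beside 0.00 over all probes. WT arrays 1 and 2 were the lowest pair for 3 of the 10 detected factors (*Pitx1*, *Gata2* and *Otx1*, 30.0%), for 2 of the 4 detected receptors (*Crhr1* and *Drd2*, 50.0%) and for 0 of the 14 detected granule genes, where 11.4% of all 16898 detected probes had this pair. None of these genes had a gap of 1 or more. The differences between these shares were not tested, and genes detected only on arrays where they are high, such as *Pitx1* and *Drd2*, had to be lower elsewhere.

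Genes on the receiving side of the hormones were listed as well. Of 15 receptors and targets, 7 were not detected, namely the 5 melanocortin receptors, *Lhcgr* and *Fshr*. The median log2 difference of the 15 was -0.03. Of them 1 was called higher and 0 lower, 6.67% beside 2.71% of all probes. The one called was *Prlr*, the prolactin receptor, whose brightest probe (ILMN_2617005) was at 8.53, 8.78 and 8.50 in WT and at 9.98, 9.97 and 8.96 in *Cmah*-null samples (log2 difference 1.03, standard error 0.30, adjusted p 0.483 in limma). Here WT array 3, which had the highest *Prl*, was the lowest of the 6. *Prlr* is also abundant in choroid plexus, and it is 1 of the 7 choroid plexus genes called higher, which are described with the other tissues. A second probe for *Prlr* gave 7.78 and 7.70 on *Cmah*-null arrays 1 and 2 and 7.24 to 7.38 elsewhere, and the third was not detected. *Ghr*, the growth hormone receptor, lay between 11.82 and 12.16 except on *Cmah*-null array 3, where it was 10.82. Of the genes that growth hormone induces, *Cish* was at 11.46, 10.63 and 9.91 in WT and at 10.01, 9.99 and 11.92 in *Cmah*-null samples, *Socs2* ranged from 10.81 to 12.53, and the brightest probe of *Igf1* from 8.30 to 9.45. None of these 3 was lowest on WT arrays 1 and 2.

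The 5 genes nearest to *Gh* in their values over the 6 arrays were not hormone genes, while *Gh* was among the 5 nearest to *Prl*. Likeness was the mean absolute difference of log2 signals, each centred on its mean over the 6 arrays, so that 0 is an identical pattern. For *Gh* the 5 nearest genes were *Lypd3* (0.41), *Cdsn* (0.47), *Casp14* (0.47), *Sprr1a* (0.49) and *Alox12e* (0.50). *Cdsn* encodes corneodesmosin, *Casp14* a caspase of keratinocyte cornification, *Sprr1a* a cornified envelope precursor and *Alox12e* an epidermal lipoxygenase. *Lypd3* was at 9.12, 10.15 and 11.89 in WT and at 11.73, 11.62 and 12.35 in *Cmah*-null samples. For *Prl* the nearest were *2310057J18Rik* (1.32), *Gh* (1.32), *Krt16* (1.38), *Pyy* (1.46) and *Calm4* (1.49), and the median over 16897 candidate probes was 2.39. The measure is not scaled to a gene's span, and the span of *Prl* is large (6.19). The larger distances of *Prl* therefore do not show neighbours less alike in pattern than those of *Gh*. *2310057J18Rik* did not share the split of *Prl*, with 8.37 on *Cmah*-null array 3, below 8.62 on WT array 1. *Pyy*, the gut and islet peptide YY, was at 7.07, 7.12 and 8.61 in WT and at 9.55, 9.43 and 9.20 in *Cmah*-null samples, and was not detected on WT arrays 1 and 2.

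**Figure D3:**
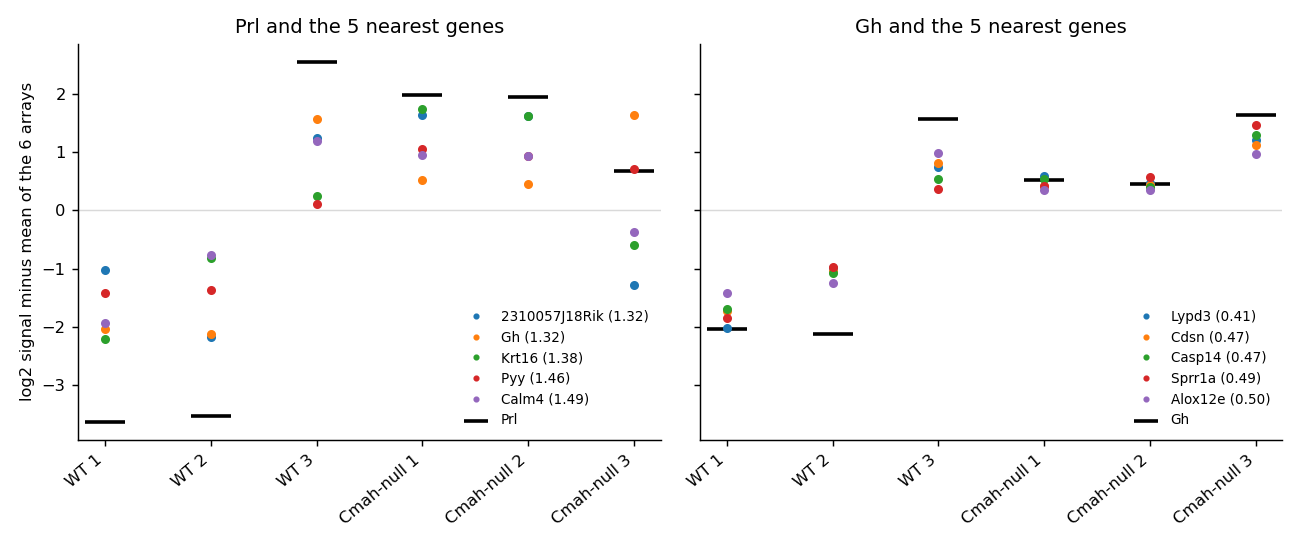
Log2 signal minus the mean of the 6 arrays (y axis) on each array (x axis) for *Prl* (left) and *Gh* (right) as black bars, with the 5 nearest genes as points and their mean absolute difference in brackets. The nearest genes of *Gh* lie within 0.41 to 0.50 of it on average, those of *Prl* 1.32 to 1.49.

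Because of these neighbours, 16 genes of keratinised epithelium were then listed, after their values were seen, and they are a description with no test. The list holds *Lypd3*, *Cdsn*, *Casp14*, *Sprr1a* and *Calm4* from the genes nearest to *Gh* or *Prl*. For these the pattern followed from their selection, and the other genes, also listed with their values in view, are no separate support. WT arrays 1 and 2 were the lowest pair in 15 of the 16, the exception being *Krtdap*. Among all 16898 detected probes, 11.4% had this pair. A gap of 1 or more was found in 7 of the 16 and in 34 of the 16898. *Krt10*, a keratin of differentiating epidermis, was at 11.73, 12.86 and 14.29 in WT and at 13.67, 13.77 and 14.85 in *Cmah*-null samples. The summed raw signal of the list was 38688 and 43384 on WT arrays 1 and 2 and between 109740 and 175783 on the other 4. *Prl* and *Gh* split the arrays in the same way as these listed genes of skin or ear canal epithelium, with a larger gap. The listed genes were all chosen with their values in view, and in part for that likeness. Whether both sets reflect tissue taken along in the dissection was not tested.

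Lists of other tissues that a dissected temporal bone can hold ordered the arrays differently. Genes of choroid plexus, a tissue inside the brain, had 7 of 10 called higher in *Cmah*-null samples, where 1.3% of all probes were, and a median log2 difference of 1.07. *Ttr*, its most abundant transcript, was at 14.30, 15.33 and 10.36 in WT and at 15.56, 15.37 and 15.09 in *Cmah*-null samples, so it was lowest on WT array 3, where *Prl* was highest. Of 13 skeletal muscle genes all were detected on every array, and their median centred level was highest on WT arrays 1 and 2, at 0.50 and 0.62, and lowest on WT array 3 at -0.40. Brown fat genes had 5 of 8 called lower, where 1.41% of all probes were. Myelin genes were highest on WT array 1 in 8 of 8, and neuron, marrow and blood genes had a median log2 difference of -0.06 and -0.03. Of the genes of the cochlea itself, 18 of 22 were detected and their median centred level stayed between -0.10 and 0.06 on all arrays. Some genes behind that median, such as *Oc90* and *Kcnq1*, lay near background. Single cochlear genes varied far more, and in part together. *Slc26a4*, *Coch*, *Gjb2*, *Gjb6*, *Myo6* and *Emilin2* were lowest on WT array 1, while *Otos*, *Kcne1* and *Pou3f4* were lowest on *Cmah*-null array 3. *Slc26a4*, the anion exchanger pendrin, ranged from 8.31 on WT array 1 to 11.02 on WT array 3, *Coch*, cochlin, from 10.40 on WT array 1 to 12.48 on WT array 3, and *Otos*, otospiralin, from 8.82 on *Cmah*-null array 3 to 11.40 on WT array 3. The outer hair cell gene *Slc26a5* and the hair cell factor *Pou4f3* were among the 4 that were not detected. None of the cochlea, muscle, myelin, neuron or marrow and blood genes was called. The part of these tissues in the hormone values was not tested.

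**Figure D4:**
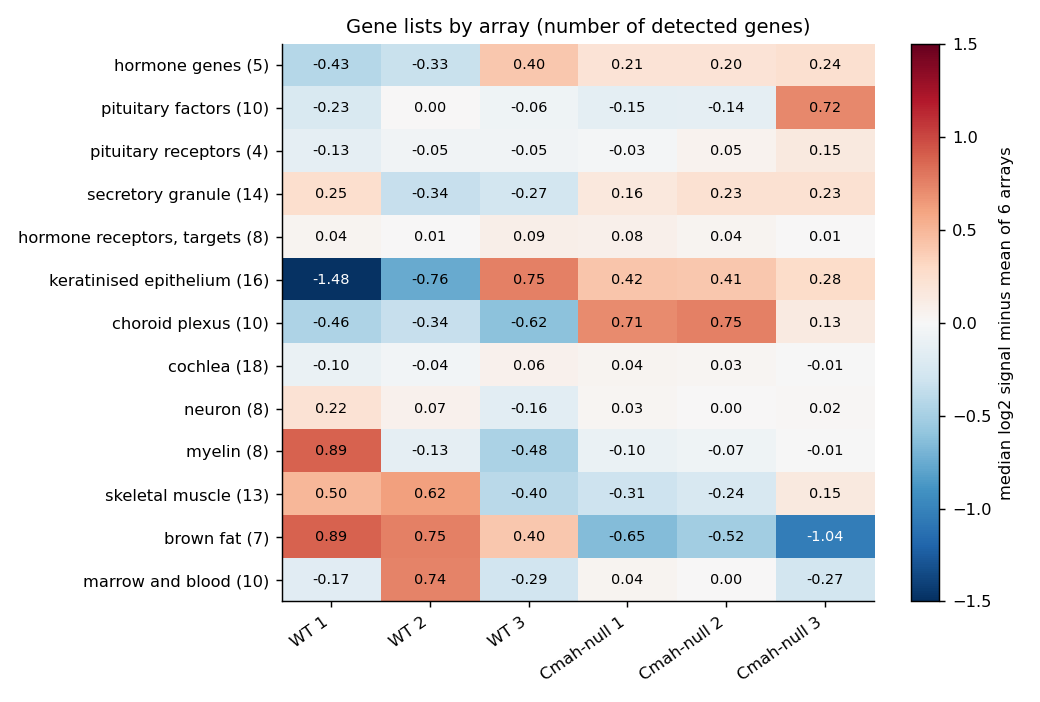
Median over the detected genes of each list of the log2 signal minus the mean of the 6 arrays, by list (rows, with the number of detected genes) and array (columns). Keratinised epithelium is lowest on WT arrays 1 and 2 (-1.48 and -0.76), while choroid plexus is lowest on WT array 3 (-0.62). The hormone gene row (-0.43 and -0.33 on WT arrays 1 and 2) includes *Tshb*, *Cga* and *Pomc*. These passed detection only through other arrays, so that median is no support for a likeness between the rows.

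Of 5 sex-linked genes, *Xist* moved with *Prl*, while *Eif2s3y* and *Jarid1d* moved in the opposite direction. *Ddx3y* did so in part, and *Uty* did not follow *Prl*. The labels do not give the sex of the animals. *Xist*, the X inactivation RNA made in female cells, was at 7.13, 7.20 and 8.95 in WT and at 8.30, 8.23 and 7.78 in *Cmah*-null samples (ILMN_3022688), and its order over the 6 arrays was that of *Prl*. A second *Xist* probe gave 7.52, 7.38 and 8.75 in WT and 8.66, 8.62 and 8.14 in *Cmah*-null samples. The Y-linked gene *Eif2s3y* was at 10.02, 11.35 and 7.16 in WT and at 7.31, 7.07 and 9.58 in *Cmah*-null samples. It was detected on WT arrays 1 and 2 and on *Cmah*-null array 3, and so was Y-linked *Jarid1d*, at 8.60, 8.26 and 7.13 in WT and from 6.98 to 7.57 in *Cmah*-null samples. *Uty* ranged from 7.30 on WT array 3 to 8.04 on *Cmah*-null array 3. The brightest *Ddx3y* probe was at 12.31, 12.94 and 11.62 in WT and at 10.50, 10.38 and 10.68 in *Cmah*-null samples. It was highest on WT arrays 1 and 2, but WT array 3 lay above every *Cmah*-null array. Its groups thus did not overlap, where 16.4% of all probes had groups that did not overlap. Of the 5 genes 1 was called, lower in *Cmah*-null samples (20.0% beside 2.71% of all probes), and their median log2 difference was -0.81. The arrays with the lowest *Prl* thus had the highest *Eif2s3y*, *Jarid1d* and, by its brightest probe, *Ddx3y*, and the lowest *Xist*. *Cmah*-null array 3 was between the extremes for *Prl*, *Xist*, *Eif2s3y* and *Jarid1d*. With 6 arrays, the part of sex in the hormone values was not tested, and fits that group arrays by these signals were not made.

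**Figure D5:**
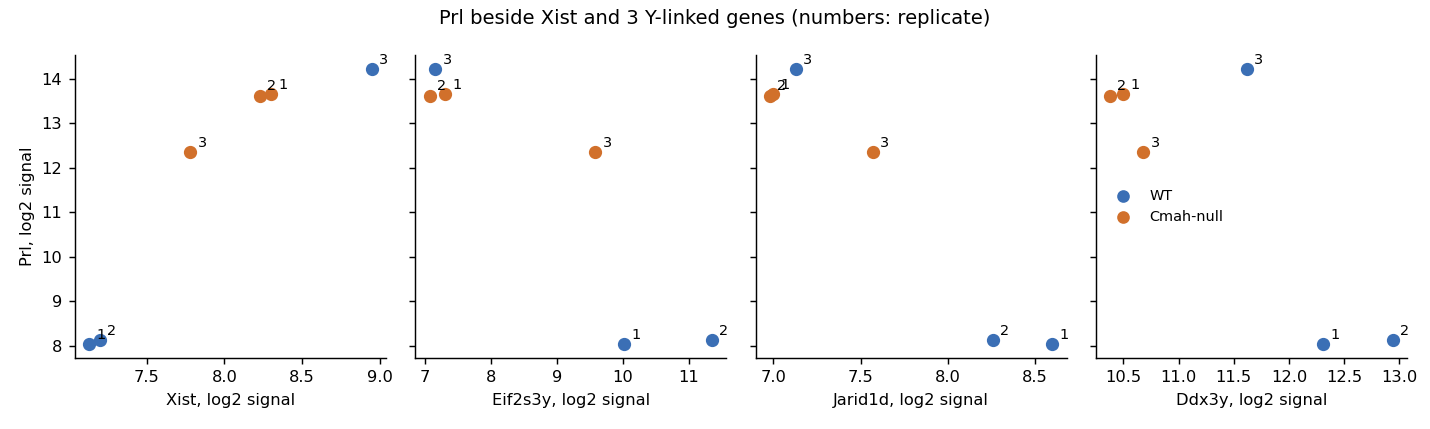
Log2 signal of *Prl* (y axis) against that of *Xist* and of the Y-linked genes *Eif2s3y*, *Jarid1d* and *Ddx3y* (x axes), 1 point per array with its replicate number. *Prl* is lowest on the 2 arrays with the lowest *Xist* (7.13 and 7.20) and the highest *Eif2s3y* (10.02 and 11.35).

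The number of beads per probe did not follow the hormones. The median was 34 on WT array 1 and 39 on WT array 2, which were both low for *Prl*, and 39, 32, 32 and 38 on WT array 3 and *Cmah*-null arrays 1, 2 and 3, which were high. With a block for the 2 sets of arrays, the differences of *Prl* and *Gh* were 3.39 and 2.22. Between 13873 and 15223 probes were detected on an array.

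The promoter of *Prl* is shown because that gene carries the main pattern and its control by Pou1f1 is well known. The 250 bases before its start are given from RefSeq on build GRCm38.p6, plus strand, chr13:27057320-27057569. Capitals mark matches to TATNCAT on either strand, the core letters of Pou1f1 sites.
Prl promoter: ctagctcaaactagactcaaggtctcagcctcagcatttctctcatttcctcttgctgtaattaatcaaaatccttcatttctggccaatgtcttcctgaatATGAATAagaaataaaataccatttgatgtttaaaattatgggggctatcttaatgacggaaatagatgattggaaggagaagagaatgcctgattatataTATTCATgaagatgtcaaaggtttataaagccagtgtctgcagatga

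The matches begin 148 and 47 bases before the start and do not overlap. Of 32851 promoters in the table, 7.92% held the motif in the same window and 1.26% held it 2 or more times. *Pou1f1* had it in 1 of its 2 promoters, and the promoters of *Tshb*, *Cga*, *Pomc*, *Lhb* and *Fshb* had no match. No promoter of *Gh* or *Ghrhr* was among the 32851, so the motif could not be counted for these genes. A match is a run of letters and was not tested as a binding site, and the level of *Pou1f1* itself could not be read, since no probe carries its symbol.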

How the data were processed

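The authors deposited, for each of the 25697 probes, the average bead signal of each array as an intensity without normalization or background subtraction. The deposited raw table also gives the standard error of that signal over the beads, the count of beads and a detection p-value against negative controls. A second deposited table gives log2 values, which differed by at most 0.051 from quantile-normalized log2 signals recomputed from the raw table, and these were used here. Its fold changes, test statistics and adjusted p-values are the authors' comparisons and were not used, nor were 12 columns that repeat signals and detection p-values. The columns of the second group are named "old". They were matched to *Cmah*-null samples by elimination and number.

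Genotypes were compared with limma 3.58.1 in R 4.3.3 by lmFit and eBayes without covariates. Tests were two-sided, p-values were adjusted by Benjamini-Hochberg over the whole array, and the fit was checked on simulated data. The study's methods give n = 3 for the mice of each group, while the labels do not say whether replicates are separate mice. The p-values set each mean difference against the spread between samples of a genotype. Whether that is a spread between mice is not known from the labels. The number of arrays limits the precision. Members and lists were chosen with earlier results of these data known. Each gene of a list was read from its brightest probe. Named genes were all members, list probes detected on at least 1 array that were called or spanned 2 log2 units, and the 5 genes most like each detected member spanning 1 unit. Other genes, namely those of the remaining lists and any further ones, were chosen with their values in view, as were all keratinised epithelium, sex-linked and prolactin family genes. Alternatives were neqc (offset 16), scaling to equal medians, keeping probes with detection on 3 arrays or more, a replicate number block, a prior with trend and robust, a bead number block (arrays with a median under 36 beads against the others), averaging *Cmah*-null samples 1 and 2, every probe of a gene, and leaving out each array. Figures used matplotlib 3.10.9 in Python 3.11.15.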

Additional observations from a re-analysis of the deposited data

How the results depend on the processing

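The log2 differences of *Prl* and *Gh* stayed above 0 under all 13 alternatives, at 2.03 to 5.12 and 1.11 to 2.96 when 1 array was left out. They moved by less than the SD within genotypes, which the split among WT arrays itself makes large, so this is a weak check. Over the main fit and these alternatives, their adjusted p in limma ranged from 0.195 to 0.96 and from 0.217 to 0.96. The 697 probes called at 1.5-fold with an unadjusted p became 1482 (neqc), 2488 (median scaling) and 1728 (bead number block), and 429 to 1037 with 1 array left out (429 without WT array 2). Of the 697, these 3 settings called 671, 399 and 620 too. Median scaling made 96.8% of the calls higher where the quantile-normalized values gave 47.9%, and moved the median of detected probes from 0.01 to 0.16. Relative to that median, *Prl* at 3.50 and *Gh* at 2.21 remained far higher. At an adjusted p under 0.05, 3 probes were called with the bead block and 0 under the other alternatives. The median of the factors, receptors and granule genes was 0.28 among those detected on at least 3 arrays, where fewer genes are counted, and 0.03 to 0.09 with 1 array left out. That of hormone receptors and targets was -0.21 with the same filter and -0.04 to 0.02 with 1 array left out, 0.02 without *Cmah*-null array 1 and 0.01 without array 2. Replicate numbers do not pair the samples: the correlations of same-numbered deviations were 0.0293, -0.182 and 0.0222, no sample correlated best with its own number, and the replicate block gave 811 calls. The causes were not tested. Signals near background limit what can be said of *Tshb*, *Cga* and *Pomc*, since their log2 differences are compressed there.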
